A study of Mus musculus with 65 samples.

Results

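CTCF binding in primary mouse erythroblasts was compared with CTCF binding in a cultured erythroid line. The comparison used 14 of the 53 deposited peak lists: both lists titled ERY and 12 lists of G1E-ER4+E2 cells that carry the assessment Pass. The ERY cells were Ter119+ CD44+ cells of low forward scatter, sorted from the bone marrow of male C57BL/6 mice of 5 to 8 weeks, with no added agent. G1E-ER4 cells are a cultured line of Gata1-null erythroid progenitors, derived from embryonic stem cells, that carries GATA1 fused to an estrogen receptor domain. The +E2 cells had received β-estradiol for 24 hours, which switches the fused GATA1 on and starts maturation. All 14 libraries came from fixed, sonicated chromatin and the same CTCF antiserum. Mean chromatin length was 250 and 276 bp in ERY and 199 to 290 bp in the line. Of the line lists, 9 came from the study series and 3 from earlier libraries. The 12 lists are repeat preparations of 1 cultured line. Primary cells were fixed for longer than the line of the study series, the earlier libraries were fixed in various ways, and most line peaks were called against a composite input. Peak lists hold no expression, so the cell labels were not checked against marker genes. The source of the cells therefore cannot be told apart from these steps, from strain or from cell number.

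CTCF is a zinc finger protein that binds a long, GC-rich DNA motif. It holds cohesin at chromatin loop ends and separates regulatory neighbourhoods, and many of its sites are shared between cell types. At part of its sites, methylation of a CG dinucleotide inside the motif weakens binding. DNA methylation was not measured here, and a peak list says whether a region was called, not how much protein was there.

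Peaks that shared at least 1 bp were merged into 25676 sites. Of these, 164 (0.639%) were called in both ERY lists and in no line list. That count rests on both ERY libraries: it was 839 without the 250 bp library and 1316 without the 276 bp library, and 50 with peaks of −log10 p of at least 10 alone. In the other direction, 1967 (7.66%) were called in all 12 line lists and in neither ERY list. A further 3322 (12.9%) were called in all 14 lists. Sites just outside these classes numbered 55 for both ERY lists and 1 line list, 1692 for all 12 line lists and 1 ERY list, and 1135 for 11 line lists and no ERY list. The ERY lists were shorter, with 8284 peaks in the 250 bp list and fewer in the 276 bp list, against 10655 to 21986 in the line. When each list was limited by −log10 p to as many of its strongest peaks as the 276 bp ERY list holds (lists of equal length), the classes held 484 (3.46%), 307 (2.19%) and 1728 (12.3%) of 13995 sites. That limit fell at a −log10 p of 5.85 in the longer ERY list, with the next peak also at 5.85, and between 7.79 and 31 in the line lists. So the larger class among whole lists was the one of line sites, and among lists of equal length the one of ERY sites. The rules of these classes are unlike, with 2 lists to agree for ERY sites and 12 for line sites. Their sizes therefore cannot show which group had more sites of its own. Just outside them, in lists of equal length, were 215 sites of 11 line lists and no ERY list. Another 141 were in both ERY lists and 1 line list.

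**Figure D1:**
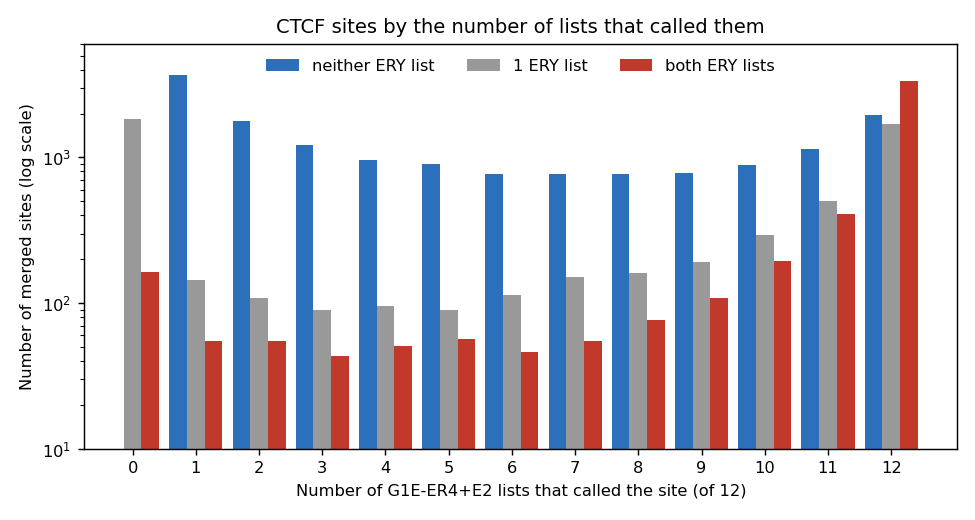
Number of merged CTCF sites (log axis) by the number of G1E-ER4+E2 lists that called them, for sites called in neither, 1 or both ERY lists. The counts rise at both ends of the axis, with 164 sites in both ERY lists and no line list and 3322 in all lists.

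The sequences below show the DNA of the strongest sites of each class by mean rank, as the 19-base stretch that best matched the CTCF motif. That motif was learned from a list outside the comparison. The best match need not be the stretch that CTCF bound. Matches at Ly6e (score 12.2) and Dus3l (9.5) were weak, below the score of 12.5 that a p of 1e-05 per position requires. Sequences are from GRCm38, read 5′ to 3′ in the orientation of the motif, with CG dinucleotides in capitals. The first set holds, in order of strength, every site with a match among the strongest 10 that were called in both ERY lists and no line list.
Gm20388 intron upstream of Zfp469 (chr8:122259538-122259556, minus strand): accagcagtgggcagcata
Cdh23 intron at the Vsir start (chr10:60346844-60346862, plus strand): gcccctCGggggCGctgct
Downstream of Ly6e (chr15:74968720-74968738, minus strand): gccataagatggaacCGca
Megf6 intron (chr4:154246613-154246631, minus strand): gccagcaggagtCGcacta
Upstream of Rph3al (chr11:75967189-75967207, minus strand): gcCGccagagggcagccag
Sgpl1 promoter (chr10:61147947-61147965, minus strand): gccagcaggCGgCGCGcac
Cdk17 promoter (chr10:93160643-93160661, plus strand): gcCGgcaggggtCGCGctg
Gm20388 intron, second site (chr8:120828472-120828490, minus strand): acCGgcagggggagctcct
The next set holds the strongest 8 sites called in all 12 line lists and neither ERY list.
Near Snhg7os (chr2:26646983-26647001, plus strand): gacagtaggtggtgctgta
Lrrc28 intron (chr7:67631036-67631054, minus strand): accagcaggggtcagtcat
Near Ccdc8 (chr7:17002456-17002474, minus strand): accaccaggtggtgctcca
Gm49007 intron (chr14:96954672-96954690, plus strand): accactagatgacaatgtt
Near Gm24187 (chr13:9847002-9847020, minus strand): accaccagaggacactgtg
Slitrk5 promoter (chr14:111674846-111674864, minus strand): gcCGgtaggtggcagcCGa
Sec1 intron (chr7:45682917-45682935, minus strand): gcctccagagggCGctctc
Near Timm8a2 (chr14:122060885-122060903, minus strand): gccaccagggggcatagga
The last set holds the strongest 5 sites called in all 14 lists.
Sec22c intron (chr9:121697927-121697945, plus strand): gccaccagggggcactgta
Snx29 intron (chr16:11424064-11424082, plus strand): accaccaggggccactctg
Nemp1 intron (chr10:127674402-127674420, minus strand): accagaagagggcatcagg
Dus3l promoter (chr17:56764018-56764036, minus strand): gacaatggggggCGggggt
Fam129b intron (chr2:32912595-32912613, plus strand): gccagcaggCGgcagtatt

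CG dinucleotides in the motif were more frequent at the ERY sites. Of the 140 ERY sites with a motif match, 106 (75.7%, exact interval 67.8 to 82.6) held a CG in the best match. The share was 45.8% (43.6 to 48.1) of 1947 line sites and 54.0% (52.2 to 55.7) of 3302 sites in all lists. These are Clopper-Pearson intervals at 95%, which cover counting error only. Letters of the motif are counted from 1 at its 5′ end, and the 2 pairs that most often held a CG are given first. A CG at letters 3 and 4, as in the Rph3al and Cdk17 sequences, was present in 32.9% (25.2 to 41.3) of ERY matches, 5.5% (4.53 to 6.6) of line matches and 10.6% (9.57 to 11.7) of matches in all lists. A CG at letters 13 and 14, as in Cdh23 and Megf6, was present in 60.0% (51.4 to 68.2), 37.9% (35.7 to 40.1) and 43.7% (42 to 45.4). ERY matches also held a CG more often than line matches at rarer pairs, with 10% (5.58 to 16.2) against 1.54% (1.04 to 2.19) at letters 15 and 16, 7.14% (3.48 to 12.7) against 1.85% (1.3 to 2.55) at 16 and 17, and 6.43% (2.98 to 11.9) against 1.59% (1.08 to 2.25) at 10 and 11. Promoters are rich in CG, so the share was also taken away from them. Outside promoters a CG was held by 67.8% (57.1 to 77.2) of ERY matches, 43.6% (41.3 to 46.0) of line matches and 48.9% (47.0 to 50.9) of matches in all lists. In lists of equal length the shares outside promoters were 55.3% (49.8 to 60.8), 44.8% (38.6 to 51.1) and 48.8% (46.0 to 51.5), and the ERY and line intervals then met.

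The ERY sites lay at promoters more often than the line sites. Within 1000 bp of an annotated transcript start were 54 of 164 ERY sites (32.9%, exact interval 25.8 to 40.7), 11.2% (9.87 to 12.7) of the line sites and 22.6% (21.2 to 24.1) of the sites in all lists. In lists of equal length the shares were 26.7%, 15.3% and 23.2%, and the ERY interval (22.8 to 30.8) met that of all lists (21.2 to 25.3). Line sites lay more often within genes, with 52.2% (49.9 to 54.4) against 35.4% (28.1 to 43.2) of ERY sites. GC content of the middle 200 bp averaged 58.4% at ERY sites, 48.4% at line sites and 51.9% at sites in all lists.

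A motif match was found in 85.4% (exact interval 79.0 to 90.4) of ERY sites and in 99.0% (98.4 to 99.4) of line sites. Windows of the same width 10 kb away held a match in 39.6% and 47.0%. ERY sites were narrower, with a median width of 666 bp against 1031 bp, which leaves less sequence in which to find a match. A site spans all peaks merged into it, from 2 lists at ERY sites and 12 at line sites. These widths are therefore not widths of peaks. In the middle 200 bp the shares were 71.3% (63.8 to 78.1) and 90.5% (89.1 to 91.8). In lists of equal length the shares in the middle were 82% (78.3 to 85.3) and 87.3% (83 to 90.8), whose intervals met. Over whole sites of those lists the shares were 94% (91.5 to 96) and 99.3% (97.7 to 99.9), whose intervals did not meet. The ERY share was then near the 94.1% of every site. At least 50% of the bases were soft-masked as repeats in 14% (9.1 to 20.3) of ERY sites and 5.34% (4.39 to 6.43) of line sites. Over every site the share was 10.4%, within the ERY interval and above that of the line.

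Rank within a list is given as a percentile of −log10 p, with 100 for the strongest peak, because depth is unknown and values of different lists cannot be set on 1 scale. The median ERY site stood at percentile 49.1 of the 250 bp ERY list and 47.3 of the 276 bp list. The median line site stood between 48.7 and 73.8 in the 12 line lists. In lists of equal length the medians were 57.4 and 50.6 for ERY sites and 77.7 to 89.3 for line sites. Sites in all lists stood higher, at 73.4 and 66.4 in ERY and between 75.6 and 89.0 in the line. The classes need 2, 12 or 14 lists to agree, which can select for strength to unlike degrees. Their ranks therefore cannot show which class was stronger. Over the 164 ERY sites the ranks in the 2 ERY lists were weakly related, with Spearman's rho of 0.316 across sites of 1 pair of libraries.

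The strongest ERY site by mean percentile lay within the long Gm20388 locus on chromosome 8 and upstream of the Zfp469 start. Its −log10 p was 27.4 and 17.8 in the 250 and 276 bp ERY lists, and its fold enrichment 25 and 22.5. The second lay at the start of Vsir, an immune checkpoint receptor gene inside an intron of the cadherin gene Cdh23, with −log10 p of 18.8 and 26.1. The third lay 12174 bp downstream of the Ly6e start, with −log10 p of 34.3 and 15.6. The Sgpl1 promoter, the gene of the enzyme that cleaves sphingosine 1-phosphate, gave 17.2 and 16.8. The promoter of the kinase gene Cdk17 gave 15.3 and 17.3. The other 5 of the strongest 10 lay in a Megf6 intron, near Foxd4, near Rph3al, near Glt6d1 and in Gm20388 again. Of these 10 sites, 8 were called in all 9 CTCF lists of other primary blood cells. The Foxd4 and Glt6d1 sites held no motif match and were called in 2 of the 9.

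The strongest line sites were picked from 1967 sites of longer lists, so their ranks are not compared with those of the ERY sites. The site 3677 bp from the Snhg7os start on chromosome 2 stood between percentiles 99.5 and 100 in all 12 line lists, with a −log10 p of 52.1 to 177 and a median of 69.5, and in neither ERY list. The Lrrc28 intron site had a −log10 p of 18.8 to 90.2, and the site near Ccdc8, a gene of a complex that maintains microtubules, 27.5 to 143. The other 7 of the 10 lay near or in Gm49007, Gm24187, Slitrk5, Sec1, Timm8a2, Gm11379 and Miga1. Chromosome 7 held 3 of the 10 and chromosome 14 another 3. Of the 10, 2 were called in all 9 other primary lists, and the others in 6 to 8.

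The strongest sites in all lists lay in introns of Sec22c, Snx29 and Nemp1. At Sec22c, a gene of vesicle transport, −log10 p was 146 and 193 in ERY and 115 to 310 in the line, with a median of 212.

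CTCF lists outside the comparison were then read at the same sites. They came from 9 libraries of other primary cells sorted from mouse marrow and from 4 further line libraries. The primary cells were stem and early progenitor cells (LSK), common myeloid progenitors (CMP), megakaryocyte-erythrocyte progenitors (MEP), erythroid colony-forming cells (CFUE, sorted as Ter119+ CD44+ like ERY but with high forward scatter), granulocyte-monocyte progenitors (GMP), megakaryocyte colony-forming cells (CFUMk) and immature megakaryocytes (iMk). Most of the 164 ERY sites were called in each primary list, and few in the further line lists. Each primary list called between 72.0% (LSK, 241 bp) and 86.0% (LSK, 231 bp) of the 164 sites, and CFUE called 76.8% (exact interval 69.6 to 83.1). Over every site CFUE called 29.1%, MEP 51.6% and CFUMk 87.8%. CFUMk called 83.5% of the ERY sites, below its share of every site, so a high share alone does not set these sites apart. Shares of every site in the remaining lists are not given here. The 2 further Pass lists of the line called 1 and 4 of the 164 (0.61% and 2.44%). The 2 Low pass lists called 0 of 164, which allows a share of up to 2.22%. The class is defined by absence from 12 lists of this same line, so low shares in further lists of it follow in part from the rule. For the 484 ERY sites of the lists of equal length these 4 line lists called more, with 13.8% and 18% in the Pass lists and 3.93% in each Low pass list. All 9 primary lists called 90 of the sites (54.9%), and 6 sites (3.66%) were in none.

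Most line sites were called in each primary list but CFUE. They were called in 73.2% (CMP) to 99.0% (CFUMk) of cases outside CFUE, where 471 of 1967 were called (23.9%, exact interval 22.1 to 25.9), somewhat below the 29.1% of every site that this list called. MEP, the progenitor before CFUE, called 80.1% (78.3 to 81.9). The further Pass lists of the line called 80.4% and 85.9%. The CFUE list held 11990 peaks and the MEP list 15002, and the Low pass line lists held 7078 and 6542 peaks and called 57.6% and 56.0% of the line sites. For sites in all lists the shares were 89.0% in CFUE, 97.6% in MEP, and 78.8% and 83.0% in the Low pass lists. For the classes of the lists of equal length, CFUE called 33.2% (28 to 38.8) of 307 line sites and MEP 94.8% (91.7 to 97). Over the 9 primary lists the share of ERY sites was lower than that of line sites by 2.24 points (SD 22.1, n = 9), which an exact sign-flip test over lists did not separate from 0 (two-sided p = 0.844). Over whole lists the share of ERY sites was higher in 2 of 9 lists, CFUE and CMP. Without the CFUE list the difference was −9.13 points (exact sign-flip p = 0.0391). That setting was not planned and drops the list with the lowest share of line sites, so its p cannot serve as a test. Cut to the length of the shortest primary list, also not planned, the difference was 8.93 points in the other direction (exact sign-flip p = 0.152).

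**Figure D2:**
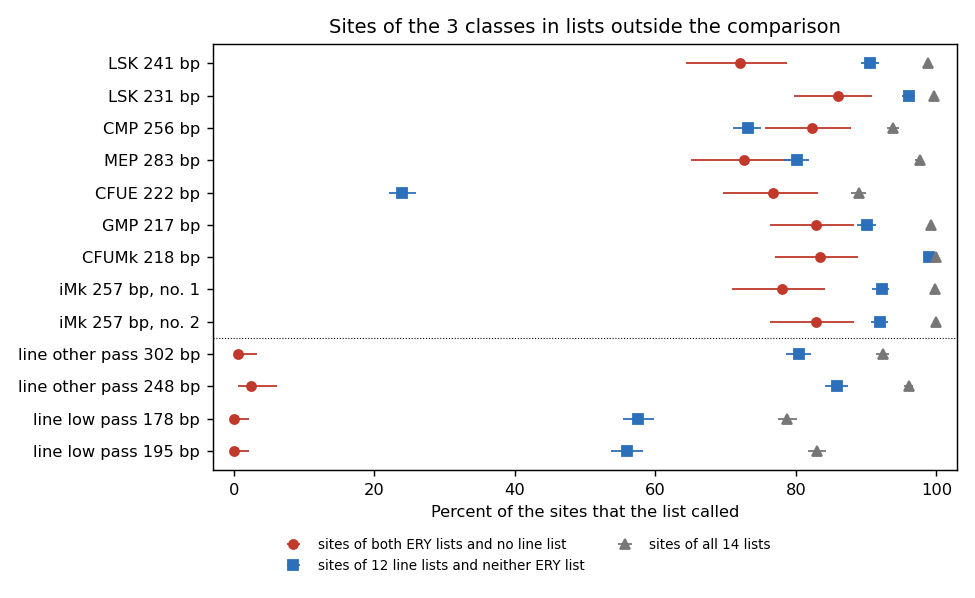
Percent of the sites of each class that 9 lists of other primary cells (above the dotted line) and 4 further line lists (below it) called, with exact 95% intervals for counting error. ERY sites were at 72.0% or more in every primary list and at 2.44% or less in every line list, and line sites were at 23.9% in CFUE.

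Only 15 line sites (0.763%) were called in no other primary list. The Peg3 intron site was the highest ranked of them, at percentiles 90.0 to 96.6 in the 12 line lists, and it was also in all 4 further line lists. Peg3 is a paternally expressed imprinted gene of a zinc finger protein. The site at chr7:6726809-6728215 lay 3013 bp from an annotated Peg3 start, and its best match, gccacaagggggcatctgg (chr7:6727399-6727417, minus strand), held no CG. The Rhd intron site (chr4:134891781-134892814) stood at percentiles 42.2 to 94.4 and was also in all 4 further line lists. Rhd encodes a rhesus blood group protein of the red cell membrane. The Spi1 exon site (chr2:91114598-91115727), in the gene of the myeloid factor PU.1, stood at percentiles 76.6 to 99.2 in the line and was called in 2 of 9 primary lists.

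The lists as wholes were compared at equal length, on the strongest peaks, with an exact permutation test over libraries. The smallest p that 91 assignments of 2 among 14 lists allow is 0.011. Measures that reached it had an adjusted p of 0.0157 over the 10 tested. ERY peaks lay at promoters in 19.1% and 21.0% of cases, above all 12 line lists at 15.5 to 18.2% (difference 3.41 points). A motif match was held by 94.8% and 92.1% of ERY peaks, below the line at 98.7 to 99.3% (difference −5.46). GC content was 52.4% and 51.9%, above the line at 49.5 to 51.0% (difference 1.77). Of the best matches in ERY, 52.7% and 53.5% held a CG, above the line at 48.9 to 51.6% (difference 2.58). With promoter peaks left out that difference was 0.659 points (adjusted p = 0.427, exact permutation test), and the groups overlapped. Peaks in gene bodies made up 45.1% and 44.0% in ERY, below the line at 46.7 to 48.2% (difference −3.02). Mostly soft-masked peaks made up 6.92% and 8.12%, above the line at 2.84 to 6.74% (difference 2.96). On whole lists that difference was 1.2 points (adjusted p = 0.275, exact permutation test). Peak number on the log10 scale differed by −0.282. Median width, 569 and 593 bp in ERY and 568 to 1062 bp in the line, did not pass the test (adjusted p = 0.11, exact permutation test).

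**Figure D3:**
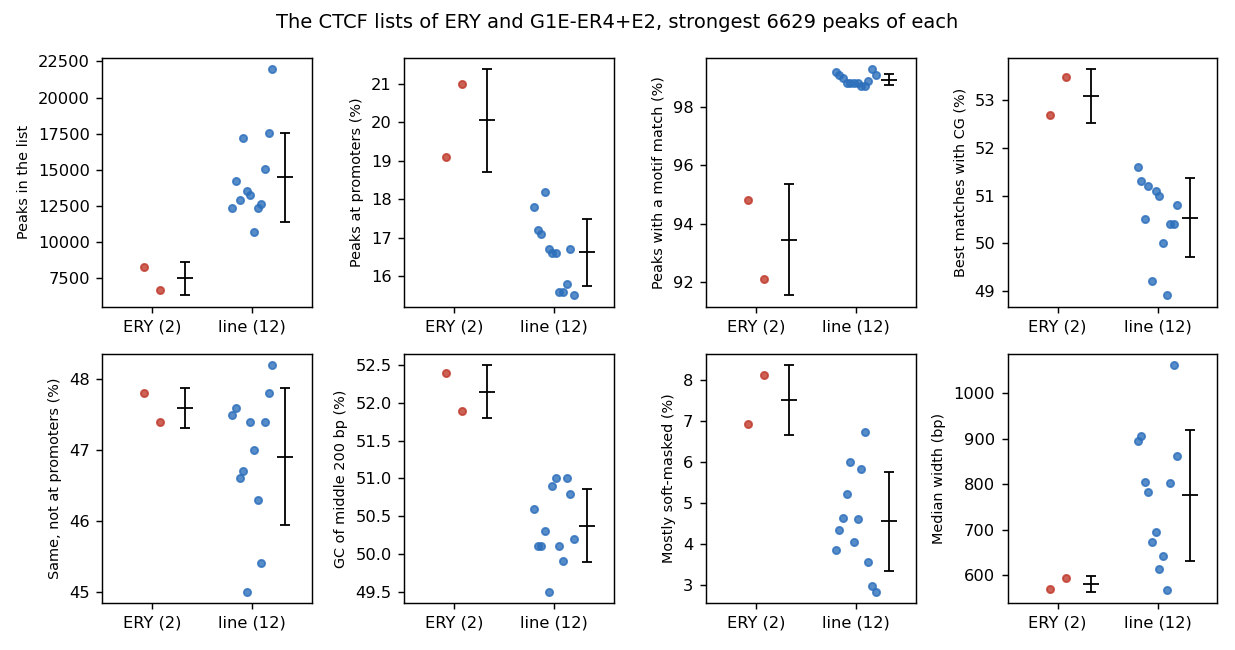
Values of each list, with 2 ERY and 12 line lists as points and bars for mean and SD. Peak number is of whole lists, and the other panels use the strongest peaks at equal length. The ERY points stand apart from all line points for peaks in the list, promoters, motif matches, CG, GC and soft-masked share, and overlap them for CG outside promoters and for width.

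Lists of equal length shared 65.4% of their peaks between the 2 ERY libraries. ERY lists shared 53.4 to 61.2% with line lists (median 57.4%), and line lists shared 71.1 to 83.7% with each other (median 75.5%). With CFUE, ERY lists shared 60.4 and 61.6% and line lists 50.3 to 53.9%. ERY overlap of this size was not particular to CFUE. ERY lists shared 58.7 to 63.7% with iMk and 58 to 62.1% with CFUMk. Line lists shared 59.8 to 66.3% with iMk and 61.4 to 65.5% with CFUMk.

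The sites in all 14 lists were tested for a difference in rank. Each site's −log10 p was ranked among the 3322 shared sites within a list, turned into a normal score, and tested with limma. Percentiles given below for single sites are over all peaks of each list. They are not the tested ranks and can overlap where the scores do not. With Benjamini-Hochberg adjustment, 150 sites (4.52%) ranked higher in ERY and 243 (7.31%) ranked lower. Scores of the groups did not overlap in 142 of the 150 and 196 of the 243, against 16.1% of all shared sites. With the 250 bp ERY library left out, 47 sites were higher and 161 lower, and without the 276 bp library 31 and 125, so the counts rest on both ERY libraries. With lists of equal length, 40 and 106 of 1728 passed.

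Among the sites that ranked higher in ERY was one 5911 bp inside Slc48a1, the gene of the heme transporter HRG1. It stood at percentiles 95 and 95.6 of the ERY lists and at 6.71 to 82.8 in the line, with a median of 42.1. The difference in normal score was 2.73 (SE 0.47, limma adjusted p = 0.000772). The site 3696 bp upstream of Trim58, a ubiquitin ligase of late erythroblasts, stood at 98.1 and 71.7 in ERY and at 0.666 to 70.2 in the line (difference 2.62, SE 0.55, limma adjusted p = 0.00344). The Trim58 match (chr11:58636760-58636778, minus strand) read gccactagggggagccaca and held no CG. The Nipsnap2 promoter site was at 99.9 in both ERY lists and between 20.4 and 99.7 in the line. The Haspin start, inside Itgae, was at 95.4 and 98.0 in ERY and 7.22 to 94.1 in the line. These sites were near the top in at least 1 ERY list and spread widely among line libraries. Without the 250 bp ERY library the Trim58 difference was 1.87 (limma adjusted p = 0.136), and 8 of the 10 sites with the largest increase lost the call when 1 of the ERY libraries was left out, Slc48a1 and Pllp being the exceptions. The other 6 of the 10 largest lay in or near Zbtb8os, 8030462N17Rik, Ankrd46, Pde10a, Snhg15 and Pllp, with differences of 2.30 to 2.46.

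The sites that ranked lower in ERY were uniformly strong in the line. The site 1259 bp upstream of Asic1, a gene of an acid-sensing ion channel, stood at percentiles 20.5 and 9.63 in ERY and at 95.5 to 99.1 in the line (difference −3.03, SE 0.33, limma adjusted p = 6.55e-06). The Irf2bp1 exon site stood at 19.9 and 65.8 in ERY and at 98.3 to 99.9 in the line. The Gm12868 site, 2647 bp beyond the glucose transporter gene Slc2a1, stood at 32.8 and 18.7 in ERY and at 94.8 to 99.5 in the line (difference −2.67). At Gm26810 the ERY libraries differed widely, at 72.7 and 0.0603, and at Col4a3 at 7.52 and 71.9. Without the 276 bp library the Gm26810 difference was −0.89 (limma adjusted p = 0.362), and without the 250 bp library the Col4a3 difference was −1.39 (limma adjusted p = 0.1). The other 5 of the 10 lay near AC122818.2, Rfng and Lsm11 and in Sorbs3 and Atxn7l1os2.

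The lists outside the test again set CFUE apart from the other primary cells. Among the shared sites that each list called, the 150 sites higher in ERY had a median percentile of 72.0 in CFUE, 33.8 to 52.3 in the other 8 primary lists and 25.6 to 34.3 in the further line lists. The 243 lower sites had a median of 34.4 in CFUE, 57.4 to 70.6 in the other primary lists and 72.5 to 80.1 in the further line lists. CFUE called 149 of the 150 and 208 of the 243. Only in CFUE did the higher sites stand above the lower sites.

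**Figure D4:**
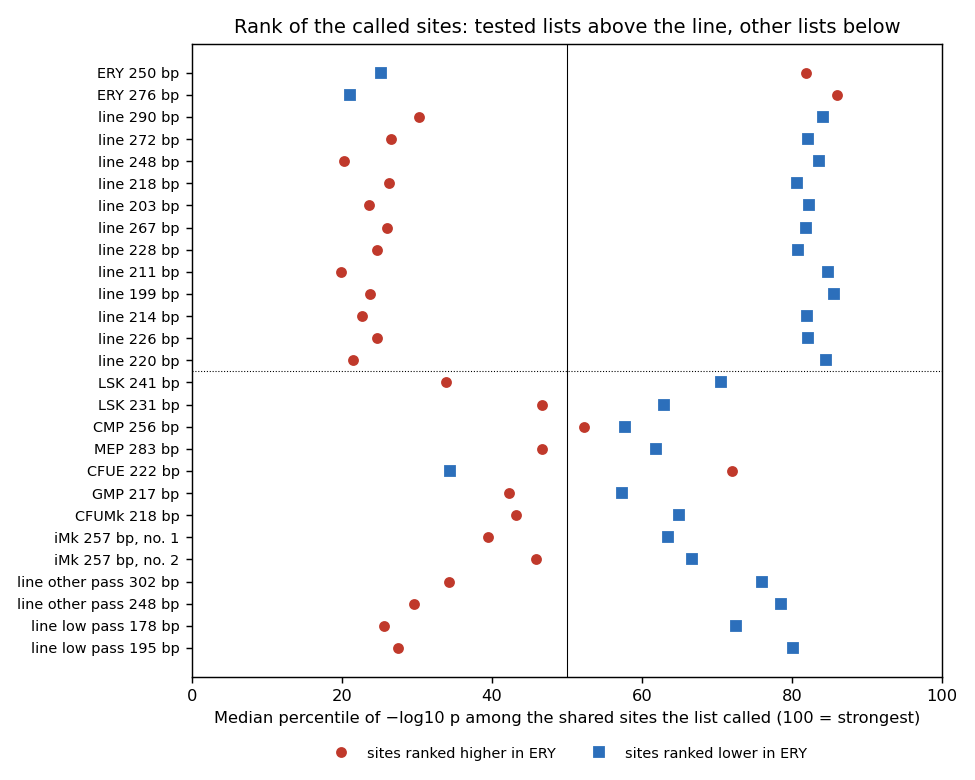
Median percentile of −log10 p, within the shared sites each list called, of the 150 sites that ranked higher and the 243 that ranked lower in ERY. The 14 lists of the test are above the dotted line and show the values that chose the sites. Of the 13 other lists, CFUE is the only one with the higher sites to the right of the lower sites.

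Sites higher in ERY lay at promoters in 33.3% of cases (exact interval 25.9 to 41.5), against 20.2% (15.3 to 25.8) of the lower sites and 22.6% of all shared sites. A CG in the best match was held by 60.1% (51.8 to 68.1) of the higher and 50.4% (43.9 to 56.9) of the lower sites, so those intervals met.

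Chromosomes differed in their share of peaks. In lists of equal length, counts per chromosome were compared with limma on log2(count + 0.5), and 8 of 20 chromosomes (40%) were higher and 6 (30%) lower in ERY. The counts of a list add to a fixed total, so fewer peaks on some chromosomes mean more on others. The calls are therefore not independent, and small ratios can follow from large ones elsewhere. Chromosome 1 carried 384 and 366 peaks in the ERY lists and 505 to 555 in the line, a ratio of 0.699 (log2 difference −0.52, SE 0.03, limma adjusted p = 1.02e-09). Chromosome 7 carried 506 and 493 in ERY and 625 to 682 in the line, a ratio of 0.765 (log2 difference −0.39, limma adjusted p = 1.51e-08). Chromosome 10 carried 357 and 348 against 260 to 279, a ratio of 1.31. Chromosome 4 carried 524 and 526 against 389 to 434, a ratio of 1.29. On these 4 chromosomes the groups did not overlap. On whole lists, scaled to equal length, the log2 difference was −0.38 for chromosome 1, −0.14 for chromosome 7, 0.28 for chromosome 10 and 0.34 for chromosome 4.

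On these 4 chromosomes the other primary cells stood on the side of ERY. Chromosome 1 held 5.79% and 5.52% of peaks in ERY, 5.48 to 6.02% in the 9 other primary lists, 7.62 to 8.37% in the line and 7.95 to 8.98% in the 4 further line lists. Chromosome 7 held 7.45 to 8.27% in the other primary lists and 9.13 to 9.87% in the further line lists. For chromosome 10 the values were 4.92 to 5.43% and 4.05 to 4.25%, and for chromosome 4 they were 7.0 to 7.57% and 5.84 to 6.11%. Sets of primary and line lists did not overlap on any of these 4 chromosomes. This did not hold for every called chromosome. On chromosome 2 the other primary lists, at 7.12 to 8.3% with a median of 7.97%, spanned ERY at 7.48% and 7.29% and the line at 7.68 to 8.09%. On X their median of 0.272% was near the line median of 0.256%, with ERY at 0.498% and 0.588%.

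**Figure D5:**
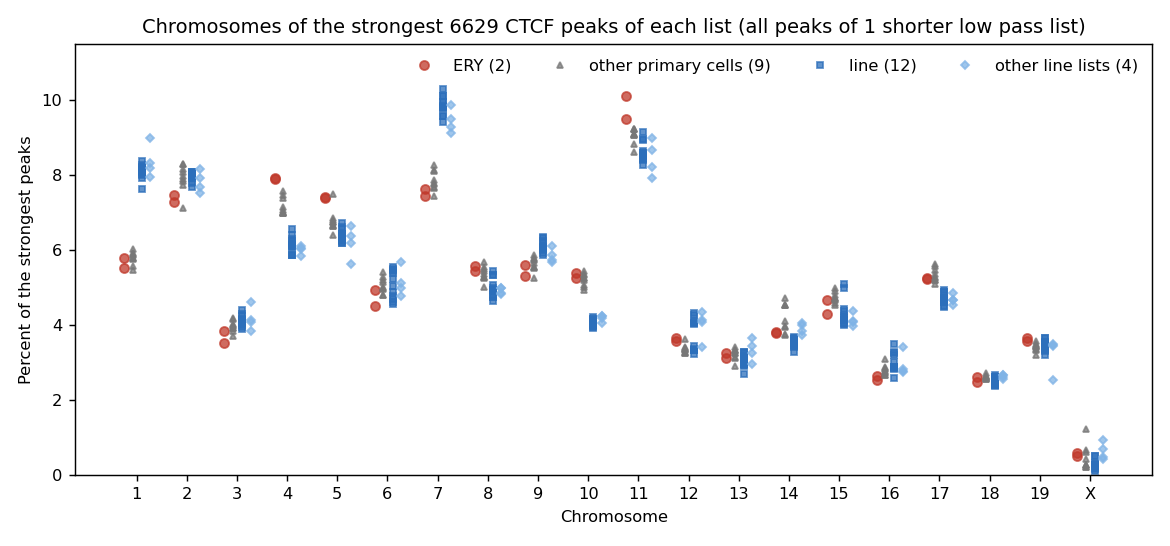
Percent of each list's strongest peaks at equal length (all peaks of 1 shorter Low pass list) on each chromosome, 1 point per list. On chromosomes 1, 4, 7 and 10 the ERY and other primary lists stand apart from all line lists, for example at 5.48 to 6.02% against 7.62 to 8.98% on chromosome 1.

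The differences ran over long stretches and not evenly along a chromosome. Between 40 and 60 Mb of chromosome 1 the ERY lists held 19 and 15 of their strongest peaks, the line lists 43 to 50, the other primary lists 17 to 25 and the further line lists 43 to 56. At 180 to 200 Mb of the same chromosome the groups overlapped, with 62 and 47 in ERY and 38 to 50 in the line. On chromosome 7, ERY lay below all line lists in each of the 5 windows of 20 Mb up to 100 Mb and overlapped them in the 3 beyond it. Between 60 and 80 Mb of chromosome 10 ERY held 105 and 99 peaks, the line 48 to 62, the other primary lists 92 to 110 and the further line lists 53 to 56. From 140 Mb to the end of chromosome 4 ERY held 133 and 129, the line 74 to 90, and the other primary lists 112 to 133. Of 109 windows with at least 20 peaks, ERY stood below all line lists in 24 and above them in 18. DNA content was not measured, and its part in these counts was not tested.

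On chromosomes 1, 4, 7 and 10 the class counts went the same way as the peak counts. Chromosome 1 held 11.9% of line sites, 3.66% of ERY sites (6 sites) and 5.72% of sites in all lists, against 6.91% of every site. Chromosome 4 held 4.32% of line sites, 11.6% of ERY sites (19) and 6.37% of every site. Chromosome 7 held 9.96%, 6.71% (11) and 7.66%, and chromosome 10 held 3.05%, 8.54% (14) and 4.52%. Chromosomes 11 and 8 were both called higher in ERY. They held 6.1% and 7.93% of ERY sites, against 7.83% and 4.86% of every site. The classes also differed on chromosome 15, whose peak count was not called. It held 4.27% of line sites, 7.93% of ERY sites and 4.14% of every site. Of the sites that ranked lower in ERY, 45 of 243 were on chromosome 1 and 47 on chromosome 7, or 23.7% and 16.7% of the shared sites there, against 7.31% over the genome.

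The X chromosome carried few peaks in both groups, 33 and 39 in ERY and 7 to 33 in the line. Its share was higher in ERY by 0.269 points (adjusted p = 0.0412, exact permutation test). On whole lists the difference turned to −0.643 points.

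Genes of blood formation, imprinting and chromatin were read through 11 lists, as genes with a site within the gene or 10 kb. Distances are given from the middle of the best motif match, or of the site where there was no match. The lists and members were chosen with earlier results of these data known. Of 21910 protein-coding genes, 0.689% had an ERY site, 8.2% a line site, 16.4% a site in all lists, 0.94% a shared site that ranked higher in ERY and 1.41% one that ranked lower. Of the 23 erythroid regulators 13 had a site in all 14 lists, among them Tal1, Klf1, Gfi1b and Lmo2. None had an ERY or a line site. Zfpm1, Cbfa2t3 and Runx1 each had an intronic site that ranked higher in ERY. With 1 ERY library left out, the call was lost at all 3, with limma adjusted p of 0.108 at Zfpm1, 0.0634 at Cbfa2t3 and 0.061 at Runx1 without the 250 bp library. Zfpm1 encodes FOG1, the partner of GATA1. Its site (chr8:122332186-122333842) stood at percentiles 96.6 and 81.8 in ERY and at 6.55 to 84.2 in the line (difference 2.20, SE 0.48, limma adjusted p = 0.00422). Cbfa2t3 encodes the corepressor ETO2. It stood at 94.5 and 88.3 against 29.2 to 77.9 (difference 2.0, limma adjusted p = 0.00365). Runx1 encodes a regulator of early blood cells and megakaryocytes. It stood at 85.5 and 90.7 against 23.6 to 84.3 (difference 1.93, limma adjusted p = 0.0125).

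Of the 40 genes of erythroid products, 15 had a site in all lists. At the alpha-globin genes, 1 shared site (chr11:32285603-32287509) lay 28 bp upstream of the Hbq1b start, 2472 bp beyond Hba-a1 and 9552 bp from Hba-a2, so both genes count from 1 site in a duplicated cluster, where reads of near-identical copies cannot be assigned with certainty. It stood at percentiles 78.4 and 92.6 in ERY and at 28.9 to 87.6 in the line (difference 1.54, SE 0.41, limma adjusted p = 0.0155). Without the 276 bp library the difference was 1.13 (limma adjusted p = 0.266). Its best match (chr11:32286928-32286946, minus strand) read gcCGccagggggCGctgca. Sites near Trim58, given above, and near the water channel gene Aqp1 (difference 1.72, limma adjusted p = 0.0206) also ranked higher, and both lost the call without the 250 bp library. The site near Slc2a1 ranked lower and kept its call with either ERY library left out. The mitochondrial iron importer gene Slc25a37 was the only gene of this list with an ERY site, 124 bp from a transcript start and at percentiles 42.6 and 17.1. Add2 and Rhd had line sites.

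Imprinted genes had line sites in 4 of 27 cases, Peg3, Usp29, Grb10 and Plagl1, and no ERY site. Usp29 had 2 line sites, the Peg3 site outside the gene and another in an intron. Of the 20 stem and progenitor genes, Igf2bp1 and Procr had line sites, and a site near Lyl1 ranked higher in ERY (difference 1.67, limma adjusted p = 0.00697). Nanog was the only 1 of 14 pluripotency genes with a line site, 6033 bp outside the gene. The Vwf intron, in the gene of the platelet adhesion protein von Willebrand factor, held the only ERY site among 15 megakaryocyte genes, at percentiles 5.86 and 54.5. Of the 16 genes of CTCF and cohesin, Ctcf and Pds5b had line sites, both outside the gene, and a Pds5a site ranked higher in ERY (difference 1.14, limma adjusted p = 0.044), a call that was lost under most alternatives. A Ccnd3 intron site also ranked higher (difference 1.32, limma adjusted p = 0.0154), the only one among 19 cell cycle genes. The Lyl1 and Ccnd3 calls were also lost without the 250 bp ERY library. No gene of DNA methylation had a site of either class or a called difference in rank.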

How the data were processed

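CTCF was measured by ChIP-seq in sorted mouse erythroblasts (2 lists) and in G1E-ER4+E2 cells (12 lists). The authors mapped reads to mm10 (GRCm38) with Bowtie, removed mitochondrial, unplaced and unmapped reads, and called peaks per library with MACS. Versions listed in the processing notes of the submitters were 1.0.0 for Bowtie and 1.8.4 for bcl2fastq. The deposited lists give the fold enrichment of each peak (a linear ratio) and −log10 of its p-value, never below 5. The deposited FDR fraction was not used. Both values depend on depth, which peak lists do not give, so peaks were ranked within a list, and the number of libraries sets the precision. Most line peaks were called against a composite input, by the study's methods.

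Peaks sharing at least 1 bp were merged. Genes came from GENCODE vM21 basic. A 19-base motif was learned from 2000 peaks of the 241 bp LSK list (a match in 87.5% of them) and searched at a p of 0.0001 per position on both strands. Shares of sites carry exact binomial intervals. Library values were tested with exact two-sided permutation tests, and ranks and chromosome counts with limma 3.58.1 (R 4.3.3), adjusted after Benjamini and Hochberg over all features. On simulated data of 3322 sites, the rank test recovered 56% of sites shifted by 2 normal score units and 28% of those shifted by 1.5, and none shifted by 0.5. The simulation drew both groups with independent noise and the spread of the line lists. Spread between the ERY lists was not used, so recovery in the real lists can differ. Libraries of 1 group are separate samples in the labels. For the line, p-values measure the spread between preparations of 1 line. Replicate numbers follow accession order and pair nothing.

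Named sites were the 10 with the best mean percentile in each class, the 10 with the largest difference in normal score in each direction among those past the threshold with no overlap of the groups, and each gene of the 11 lists with a site of either class or a called difference, of which 1 is not reported here. A site is named by the gene it lies in, or else by the nearest transcript start. Sites called in no other primary list were picked out after their values were seen. The members and lists were chosen with earlier results of these data known. Alternatives were list length, peak threshold, site width, other line lists, each library left out, and the settings of each measure. Lists of other factors were not used here. Python 3.11.15, numpy 2.4.6, pandas 2.3.3 and scipy 1.17.1 were used.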

Additional observations from a re-analysis of the deposited data

How the results depend on the processing

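Counts of sites depended most on the ERY libraries and on list length. In lists of equal length there were 484 ERY sites, 307 line sites and 1728 sites in all lists, and with peaks of −log10 p of at least 10 there were 50, 832 and 927. With 1 library left out, ERY sites ranged from 164 to 1316, line sites from 1968 to 3129 and sites in all lists from 3323 to 4486. ERY sites numbered 839 without the 250 bp ERY library and 1316 without the 276 bp library. Leaving out 1 library, differences ranged from −0.331 to −0.234 for log10 peak number, 2.47 to 4.35 points for promoters, −3.57 to −2.47 for gene bodies, −0.779 to 0.00503 between genes, −6.81 to −4.11 for motif matches, 2.2 to 2.97 for CG, 2.37 to 3.56 for soft-masked peaks, 1.49 to 2.05 for GC and 0.224 to 0.314 for X. With 1 ERY list no exact p can go below 0.0769, so the calls lost there say nothing on stability. The soft-masked difference was 1.2 points on whole lists (exact permutation adjusted p = 0.275), 2.18 with 2 further Pass lists added (0.24) and 2.53 with the other 248 bp list (0.11). The X difference was −0.643 on whole lists (0.0824), 0.235 with the study lists alone (0.0682), 0.194 with lists added (0.306) and 0.234 with the other 248 bp list (0.11). Chromosome X also turned to a log2 difference of −0.97 on whole lists. The CG difference without promoter peaks was 0.659 points. The difference between classes in other primary lists was 8.93 points with lists cut to the shortest and −9.13 without CFUE, neither of them a planned setting. Higher-ranked sites numbered 40 in lists of equal length, 96 with lists added, and 31 to 177 with 1 library left out. Lower-ranked sites numbered 106, and 125 to 262 with 1 left out. Chromosomes called higher numbered 5 to 8 and those called lower 4 to 6 with 1 library left out, and 7 and 9 on whole lists. The cause of these changes was not tested. Values of named ranked sites under the alternatives kept direction and call in 527 cases and direction only in 44. No paired analysis was possible because replicate numbers only follow accession order and pair no ERY library with a line library. Depth is unknown, and 2 ERY libraries limit every comparison.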
